A study of Mus musculus with 7 samples.

Results

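The interleukin-1 (IL-1) family genes described here are 10 genes, of 22180 measured, in colon macrophages of mice with colitis. They comprise 4 ligands (Il1a, Il1b, Il18 and Il36g), 3 signalling receptor chains (Il1r1, Il1rap and Il1rl2) and 3 decoys and antagonists (Il1rn, Il1r2 and Il18bp). A gene was taken where a probe set of the array carried exactly 1 symbol, that of the gene, and the probe set with the highest mean over the 7 arrays was kept. All 10 were found. Il36g is listed in the annotation under its older symbol Il1f9, and Il1rap was the 1 member with several probe sets. Each array measured 1 sample of sorted macrophages, 4 from Rictor fl/fl LysM+/cre mice and 3 from Rictor fl/fl LysM+/+ mice. Both genotypes carry floxed alleles of Rictor, an essential part of the mTORC2 kinase. In LysM+/cre mice the LysM (Lyz2) locus also drives cre recombinase, which acts in macrophages but also in monocytes and neutrophils. All mice had received 5% dextran sulphate sodium (DSS), which injures the colon epithelium, for 5 days and then plain water for 3 days. The sorted lamina propria cells were CD45+, CD11b+, CD64+, MHC class II+ and Ly6C-. The labels give neither the age and sex of the mice nor whether a sample pooled several of them, so the p-values measure the spread between these samples. No group carried cre with intact Rictor, and effects of Rictor loss and of cre cannot be told apart.

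IL-1α and IL-1β bind the receptor chain IL-1R1, which then recruits the accessory protein encoded by Il1rap and signals through MyD88 to NF-kB. The pathway is braked outside the cell: the antagonist encoded by Il1rn occupies IL-1R1 without recruiting the accessory chain, and IL-1R2 binds ligand but lacks a signalling domain. IL-18 has its own soluble inhibitor, IL-18 binding protein, and IL-36γ acts through the receptor encoded by Il1rl2. In the inflamed gut, macrophages are a main source of IL-1β, which acts on lymphoid, stromal and epithelial cells.

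The values are log2 intensities, and a difference is always LysM+/cre minus LysM+/+. The signal of Rictor was 7.72, 7.76, 8.25 and 7.80 on the LysM+/cre arrays, against 7.76, 7.74 and 7.80 on the LysM+/+ arrays. It did not separate the genotypes (adjusted p = 0.749, limma), and whether its probes lie in the floxed part is unknown here, so the genotypes are those of the labels. Of 13 macrophage genes measured, 7 had higher and 6 lower means on LysM+/cre arrays, with 0 past the adjusted threshold. Csf1r, C1qa and Cd68 averaged 12.00, 12.22 and 11.94 on LysM+/cre arrays and 11.92, 12.21 and 12.14 on LysM+/+ arrays, far above the array medians of 5.16 to 5.22. Among genes of the sort markers, Fcgr1 (CD64) averaged 10.73 ± 0.34 (SD, n = 4) in LysM+/cre and 9.75 ± 0.45 (SD, n = 3) in LysM+/+ samples, a difference of 0.97 ± 0.26 (SE, adjusted p = 0.362, limma). Itgam (CD11b) had a difference of 0.53 ± 0.19 (SE, adjusted p = 0.415). H2-Ab1, a gene of MHC class II, had one of -0.044 ± 0.23 (SE, adjusted p = 0.952). Ly6c2, a gene of the Ly6C that the sort excluded, had one of 1.09 ± 0.41 (SE, adjusted p = 0.415). The named macrophage and sort marker genes were chosen after their values were seen. Markers of other cell types differed between arrays. The neutrophil score, the mean deviation of 16 neutrophil genes from their 7-array means, was -0.32, 0.31, 1.31 and -0.26 on the LysM+/cre arrays and 0.41, -1.21 and -0.23 on the LysM+/+ arrays. A monocyte score of 9 genes was 0.42, 0.21, 0.35 and 0.26 on the LysM+/cre arrays and -0.096, -0.93 and -0.21 on the LysM+/+ arrays. Means were higher on LysM+/cre arrays for 14 of the 16 neutrophil genes and 7 of the 9 monocyte genes, with 0 past the adjusted threshold in either list. At an unadjusted p under 0.05, 2 neutrophil genes and 1 monocyte gene were higher, and 0 and 1 were lower. Of all genes, 6.56% were higher and 4.93% lower at that threshold, and 51.4% had a higher mean. The neutrophil marker Ly6g averaged 6.47 ± 1.62 (SD, n = 4) in LysM+/cre and 5.02 ± 1.00 (SD, n = 3) in LysM+/+ samples. Its difference was 1.45 ± 0.92 (SE, adjusted p = 0.571, limma), among the largest of the 16 neutrophil genes. Those differences ran from -0.037 for Cxcr1 to 1.79 for Mmp8. LysM+/+ array 2 was lowest on both scores. Other lists went the opposite way: means were lower on LysM+/cre arrays for 11 of 14 fibroblast genes, 15 of 17 epithelial genes and 9 of 11 endothelial genes. Again 0 were past the adjusted threshold. At an unadjusted p under 0.05, 4, 2 and 0 of them were lower, where 4.93% of all genes were. The fibroblast score was -0.37 to 0.13 on LysM+/cre arrays and 0.13 to 0.35 on LysM+/+ arrays, and the epithelial score was -0.60 to 0.47 on LysM+/cre arrays and -0.62 to 0.87 on LysM+/+ arrays. The fibroblast gene Dcn, the member of these lists with the smallest p, had a difference of -1.38 ± 0.27 (SE, adjusted p = 0.328). In sorted cells as in any bulk RNA, fewer cells of a type and less RNA per cell cannot be told apart.

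Promoter sequences of 3 members on chromosome 2 are printed, because their likeness across the arrays did not follow their distance. Il1a and its neighbour Il1b correlated at 0.47 over the 7 arrays (Pearson), and Il1b and the distant Il1rn at 0.96. Il1b also correlated at 0.90 with both Il1rap and Il18bp, members on chromosomes 16 and 7. LysM+/+ array 2 was the lowest of the 7 for Il1b (12.71), Il1rn (10.19), Il1rap (6.48) and Il18bp (7.24). It weighs heavily in correlations over so few arrays. The spans of the 3 printed members over the arrays were unlike, at 1.41 for Il1a, 0.33 for Il1b and 0.60 for Il1rn. These genes were picked after their values were seen. Il1a and Il1b are separated by 54.4 kb, while Il1rn lies 105 Mb away. Each window holds 250 bases before and 50 bases from the annotated start, in RefSeq for GRCm38.p6, read in the direction of the gene. Il1a is at chr2:129309923-129310222 and Il1b at chr2:129371090-129371389, both on the minus strand, and the most upstream of the 3 annotated Il1rn starts is at chr2:24336610-24336909 on the plus strand. Capitals mark matches, on either strand, to the AP-1 (TGANTCA) or PU.1 (GAGGAA) motif. The C/EBP (TTGCNNAA) and FoxO (GTAAACA) motifs were also searched and matched none of the 3 windows. NF-kB and interferon response element motifs were searched as well, but were left out after their matches had been seen, so the motifs shown are not the full set that was searched.
Il1a: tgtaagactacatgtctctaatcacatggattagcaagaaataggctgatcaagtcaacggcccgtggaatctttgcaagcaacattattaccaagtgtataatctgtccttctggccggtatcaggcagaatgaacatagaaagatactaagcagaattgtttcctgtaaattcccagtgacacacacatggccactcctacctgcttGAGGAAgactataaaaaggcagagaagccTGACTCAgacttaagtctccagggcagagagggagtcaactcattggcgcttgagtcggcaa
Il1b: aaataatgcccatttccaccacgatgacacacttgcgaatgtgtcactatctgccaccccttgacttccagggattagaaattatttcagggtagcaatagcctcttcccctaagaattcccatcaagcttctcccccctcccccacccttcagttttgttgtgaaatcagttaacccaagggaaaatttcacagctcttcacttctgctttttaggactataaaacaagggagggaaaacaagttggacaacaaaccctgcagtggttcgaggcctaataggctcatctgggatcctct
Il1rn: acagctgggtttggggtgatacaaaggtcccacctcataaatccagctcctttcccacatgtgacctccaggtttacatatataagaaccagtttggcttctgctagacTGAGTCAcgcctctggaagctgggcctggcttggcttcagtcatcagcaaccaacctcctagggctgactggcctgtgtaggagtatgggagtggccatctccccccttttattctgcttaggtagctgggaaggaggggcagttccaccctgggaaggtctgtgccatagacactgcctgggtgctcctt
The Il1a window holds an AP-1 match beginning at base -12 and a PU.1 match beginning at base -41, counted from the start. In the Il1rn window shown, an AP-1 match begins at base -141. The windows of the other Il1rn starts, at chr2:24345041-24345340 and chr2:24345121-24345420, held no match to the AP-1, PU.1, C/EBP or FoxO motif. The AP-1 and PU.1 letters are not in the Il1b window. Of 32851 promoter windows of this length, 7.81% hold the AP-1 letters, 28.3% the PU.1 letters, 10.8% the C/EBP letters and 3.65% the FoxO letters. A match is a description of the letters and not evidence of binding.

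No member of the family passed the test of a difference between the genotypes. The count past an adjusted p of 0.05 was 0 of 10 in limma, where 0% of the 22180 genes passed, and the smallest adjusted p among the members was 0.46. At an unadjusted p under 0.05 the count was also 0 of 10, while 11.5% of all genes were past that threshold. With a per-gene variance and no moderation, 0 of 10 passed the adjusted threshold as well. The arrays of LysM+/cre and LysM+/+ samples were separate for 0 of 10 members, against 8.79% of all genes. For 4 members, Il1b, Il18, Il1rl2 and Il1rn, the 95% interval of the fold difference lay within 1.5-fold in both directions. For the other 6 members the intervals include differences of 1.5-fold or more, so these data do not show that the genotypes are alike. Intervals are per gene and are not adjusted over genes.

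**Figure D1:**
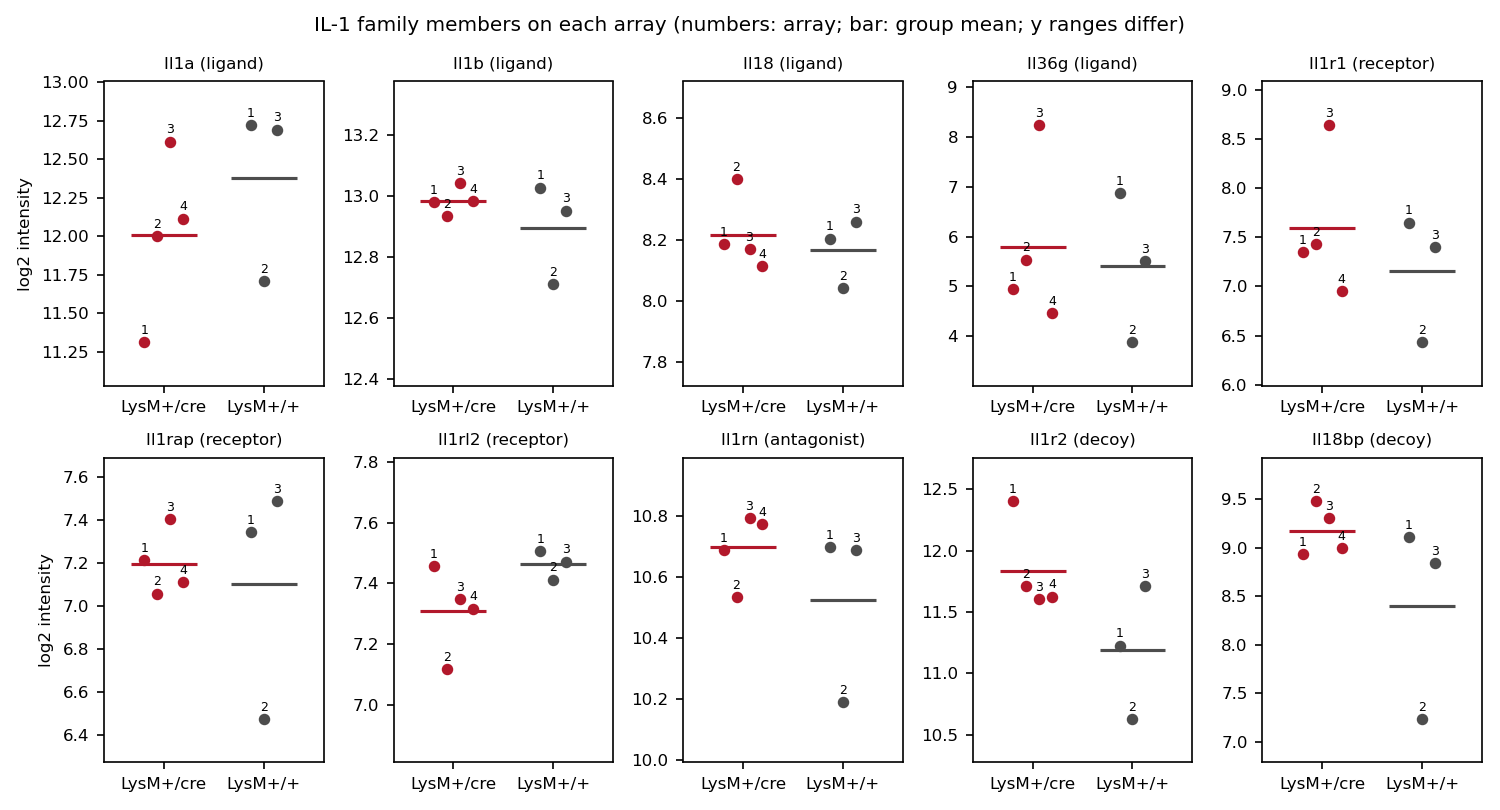
Log2 intensity (y axis) of the 10 IL-1 family members on each array, LysM+/cre in red and LysM+/+ in grey, with the array number beside each point and a bar at the group mean. The arrays of the genotypes overlap in all 10 panels, and LysM+/+ array 2 is the lowest point in 8 of them.

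Among the ligands, Il1b gave one of the steadiest signals of the family. It measured 12.98, 12.93, 13.04 and 12.98 on the LysM+/cre arrays, against 13.03, 12.71 and 12.95 on the LysM+/+ arrays. The LysM+/cre arrays lay within the range of the LysM+/+ arrays but for array 3, which was the highest of all, and LysM+/+ array 2 was the lowest. The difference was 0.088 ± 0.086 (SE, adjusted p = 0.71, limma), a fold of 1.06 with a 95% interval of 0.922 to 1.23. Without LysM+/+ array 2 it was -0.0052. Il1b lay near the top of the scale, where the highest value of any probe set was 13.90, and differences between very bright probe sets are often compressed on such arrays.

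Il1a, which encodes a ligand of the same receptor that is active also in its uncleaved form and serves as an alarm signal of damaged cells, varied far more. Its values were 11.31, 12.00, 12.61 and 12.11 on the LysM+/cre arrays, against 12.72, 11.71 and 12.69 on the LysM+/+ arrays. LysM+/cre array 1 was the lowest, LysM+/+ array 2 came next, and LysM+/+ arrays 1 and 3 were the highest. The difference was -0.36 ± 0.36 (SE, adjusted p = 0.712), with a 95% interval of 0.427 to 1.41 in fold, and it was -0.13 without LysM+/cre array 1 and -0.70 without LysM+/+ array 2. Across the 7 arrays Il1a spanned 1.41 on the log2 scale and its chromosomal neighbour Il1b 0.33.

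Il18, whose product is made as a precursor in many cell types and drives interferon-γ production, ranged from 8.12 to 8.40 on the LysM+/cre arrays and from 8.04 to 8.26 on the LysM+/+ arrays. Its difference was 0.049 ± 0.092 (SE, adjusted p = 0.856), with a 95% interval of 0.89 to 1.20 in fold. The sign of so small a difference was not stable. It was -0.014 when LysM+/+ array 2 was left out and -0.012 when LysM+/cre array 2 was.

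Il36g, which encodes an epithelial and myeloid ligand of the IL-36 receptor, had the widest spread of the 10 members. It measured 4.95, 5.54, 8.24 and 4.46 on the LysM+/cre arrays, against 6.87, 3.87 and 5.51 on the LysM+/+ arrays. The values 4.95, 4.46 and 3.87 lay below the array medians of 5.16 to 5.22, so part of this spread lies at low signal. LysM+/cre array 3 and LysM+/+ array 1 were high, LysM+/+ array 2 was low, and these arrays were also the highest, the next and the lowest on the neutrophil score. The difference was 0.38 ± 1.05 (SE, adjusted p = 0.906), with a 95% interval of 0.23 to 7.37 in fold, which leaves a change of several fold in either direction possible. It was -0.43 without LysM+/cre array 3 and -0.39 without LysM+/+ array 2. With the neutrophil score as a covariate the difference was -0.85 ± 0.25 (SE, adjusted p = 0.331). The part of neutrophil RNA in the Il36g signal was not tested.

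The receptor chain gene Il1r1 followed the same arrays. Its values were 7.35, 7.43, 8.64 and 6.95 on the LysM+/cre arrays, against 7.65, 6.43 and 7.40 on the LysM+/+ arrays. LysM+/cre array 3 stood highest by about 1 log2 unit and LysM+/+ array 2 lowest, the order of these arrays on the neutrophil score. The difference was 0.43 ± 0.46 (SE, adjusted p = 0.726), and it was 0.069 without LysM+/+ array 2 and -0.081 ± 0.17 (SE) with the neutrophil score as a covariate. Whether other cells contributed to it was not tested. Il1r1 is known mainly from stromal, endothelial and lymphoid cells. On LysM+/cre array 3 and LysM+/+ array 2 the fibroblast score was -0.25 and 0.13, and the lymphocyte score -0.039 and 0.089. The endothelial score was -0.0047 and -0.25 on these arrays, the last being its lowest value of the 7.

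Il1rap, the accessory chain shared by the IL-1, IL-33 and IL-36 receptors, ranged from 7.06 to 7.41 on the LysM+/cre arrays and from 6.48 to 7.49 on the LysM+/+ arrays. The difference was 0.096 ± 0.24 (SE, adjusted p = 0.896), and it was -0.22 without LysM+/+ array 2, the lowest array. The other 2 probe sets of Il1rap were dim, with means of 3.47 and 3.84, and gave differences of -0.34 and 0.056, so the mean of all 3 probe sets differed by -0.061. Il1rl2, the ligand-binding chain of the IL-36 receptor, ranged from 7.12 to 7.46 on the LysM+/cre arrays and from 7.41 to 7.51 on the LysM+/+ arrays. Its difference of -0.15 ± 0.088 (SE, adjusted p = 0.538) was negative under each of the 18 alternative settings, and the 95% interval was 0.778 to 1.04 in fold. LysM+/cre array 1 overlapped the LysM+/+ arrays and the other 3 LysM+/cre arrays lay below them.

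The 3 decoys and antagonists all had higher means on LysM+/cre arrays, and none passed the test. Of all genes, 51.4% had a higher mean on these arrays. Il1rn, which encodes the IL-1 receptor antagonist, measured 10.69, 10.54, 10.79 and 10.78 on the LysM+/cre arrays, against 10.70, 10.19 and 10.69 on the LysM+/+ arrays. Apart from LysM+/+ array 2, which was low, the genotypes shared 1 narrow range. The difference was 0.17 ± 0.14 (SE, adjusted p = 0.653), with a 95% interval of 0.892 to 1.42 in fold. Without LysM+/+ array 2 it was 0.0042.

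Il1r2, the decoy receptor, had the smallest p of the 10 members. It measured 12.40, 11.71, 11.61 and 11.62 on the LysM+/cre arrays, against 11.23, 10.63 and 11.71 on the LysM+/+ arrays. LysM+/cre array 1 stood alone at the top, and LysM+/+ array 3 lay among the other LysM+/cre arrays. The means were 11.84 ± 0.38 (SD, n = 4) in LysM+/cre and 11.19 ± 0.54 (SD, n = 3) in LysM+/+ macrophages, a difference of 0.65 ± 0.30 (SE, adjusted p = 0.46, limma). The fold was 1.56, with a 95% interval of 0.957 to 2.56, and the difference was 0.37 without LysM+/+ array 2 and 0.91 without LysM+/+ array 3. Il1r2 is also a neutrophil gene, and LysM+/cre array 1, its highest array, had a neutrophil score of -0.32, the second lowest of the 7. LysM+/+ array 2, its lowest array, had the lowest neutrophil score, -1.21. The monocyte score of these arrays was 0.42 and -0.93, the highest and the lowest of the 7. With the neutrophil score as a covariate the difference of Il1r2 was 0.62 ± 0.35 (SE). The part of neutrophil or monocyte RNA in the Il1r2 signal was not tested.

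Il18bp, the soluble inhibitor of IL-18, measured 8.93, 9.48, 9.31 and 8.998 on the LysM+/cre arrays, against 9.11, 7.24 and 8.85 on the LysM+/+ arrays. All arrays lay between 8.85 and 9.48 but for LysM+/+ array 2, which was more than 1.5 log2 units below the rest. The means were 9.18 ± 0.26 (SD, n = 4) in LysM+/cre and 8.40 ± 1.01 (SD, n = 3) in LysM+/+ macrophages, a difference of 0.78 ± 0.44 (SE, adjusted p = 0.532, limma). Without LysM+/+ array 2 it was 0.20, and without LysM+/+ array 1 it was 1.14. It was 0.39 ± 0.34 (SE) with the neutrophil score as a covariate and 1.58 ± 0.66 (SE) with the fibroblast score, and the part of other cells in it was not tested. Il1r2 and Il18bp were the 2 members with means at least 1.5-fold apart, a size reached by 3.82% of all genes.

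**Figure D2:**
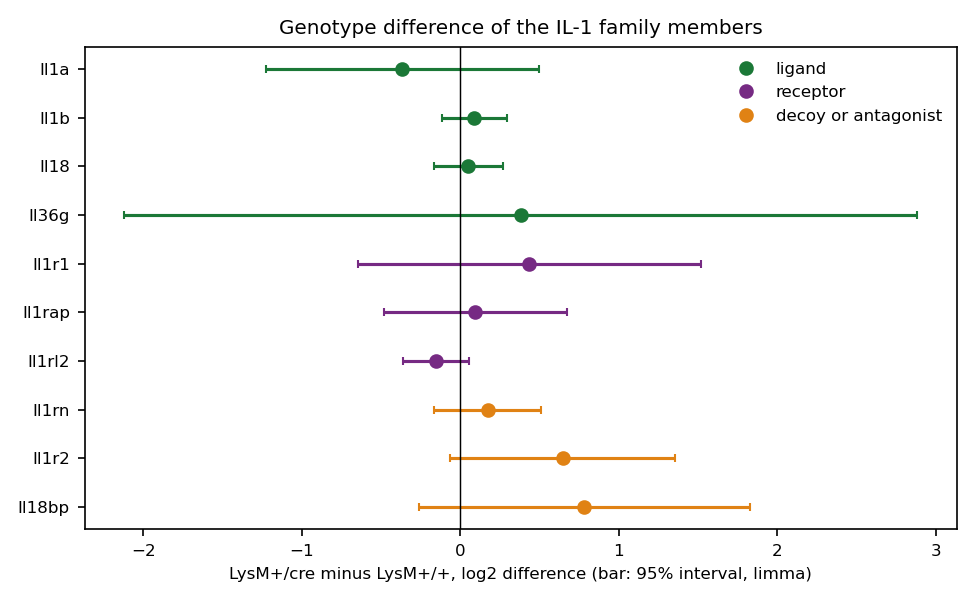
LysM+/cre minus LysM+/+ log2 difference (x axis) of each member (y axis), with its 95% interval from limma, coloured by role. Every interval includes 0, the narrowest belonging to Il1b and Il1rl2 and the widest to Il36g, from -2.12 to 2.88.

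Ligands were compared with decoys and antagonists through a score per array, the mean deviation of the genes of a class from their own 7-array means. Deviations were not scaled by gene, so the ligand score leans on Il36g. The root mean square deviation was 1.38 for Il36g, against 0.50 for Il1a and 0.10 for both Il1b and Il18. The ligand score was -0.38, -0.018, 0.78 and -0.32 on the LysM+/cre arrays, against 0.47, -0.65 and 0.12 on the LysM+/+ arrays, and the genotypes overlapped. The decoy and antagonist score was 0.33, 0.23, 0.23 and 0.12 on the LysM+/cre arrays, against 0.0033, -0.99 and 0.074 on the LysM+/+ arrays. The LysM+/cre arrays were thus above the LysM+/+ arrays on this score. Means differed by 0.53 for decoys and antagonists and by 0.038 for ligands. Without LysM+/+ array 2 the first was 0.19 and the second -0.28. The monocyte score given above was likewise higher on all 4 LysM+/cre arrays than on the LysM+/+ arrays, and its part in the decoy and antagonist score was not tested.

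The balance of the classes, ligands minus decoys and antagonists, was -0.71, -0.25, 0.56 and -0.44 on the LysM+/cre arrays, against 0.47, 0.34 and 0.043 on the LysM+/+ arrays. LysM+/cre array 3 was the highest of all, and the other 3 LysM+/cre arrays were below the LysM+/+ arrays. The place of LysM+/cre array 3, and with it the overlap, rests largely on Il36g, which measured 8.24 there against a 7-array mean of 5.64. With Il36g left out of the balance, the difference of the genotype means was -0.61. The balance averaged -0.21 ± 0.55 (SD, n = 4) in LysM+/cre and 0.28 ± 0.22 (SD, n = 3) in LysM+/+ macrophages, a difference of -0.495. That difference ranged from -0.75 without LysM+/cre array 3 to -0.33 without LysM+/cre array 1, and it is about as large as the spread within the LysM+/cre group. It is a description of these arrays and carries no test, since the members were chosen with results of these data known.

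Single pairs of a ligand and its inhibitor were unlike one another. The deviation of Il1b minus that of its antagonist Il1rn was -0.033, 0.076, -0.073 and -0.11 on the LysM+/cre arrays, against 0.0065, 0.20 and -0.060 on the LysM+/+ arrays. These values ran from -0.11 to 0.20 on the log2 scale, a range about as wide as the 0.33 that Il1b itself spanned. By themselves they do not show that the 2 genes moved together. For Il1b minus the decoy Il1r2 the values were -0.81, -0.16, 0.049 and -0.030 on the LysM+/cre arrays, against 0.41, 0.69 and -0.15 on the LysM+/+ arrays. Here LysM+/cre array 1 and LysM+/+ array 2 lay at opposite ends, and the genotypes overlapped. For Il18 minus Il18bp the LysM+/cre arrays ranged from -0.49 to -0.10, against -0.26, 1.45 and 0.062 on the LysM+/+ arrays, where array 2 alone was high.

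**Figure D3:**
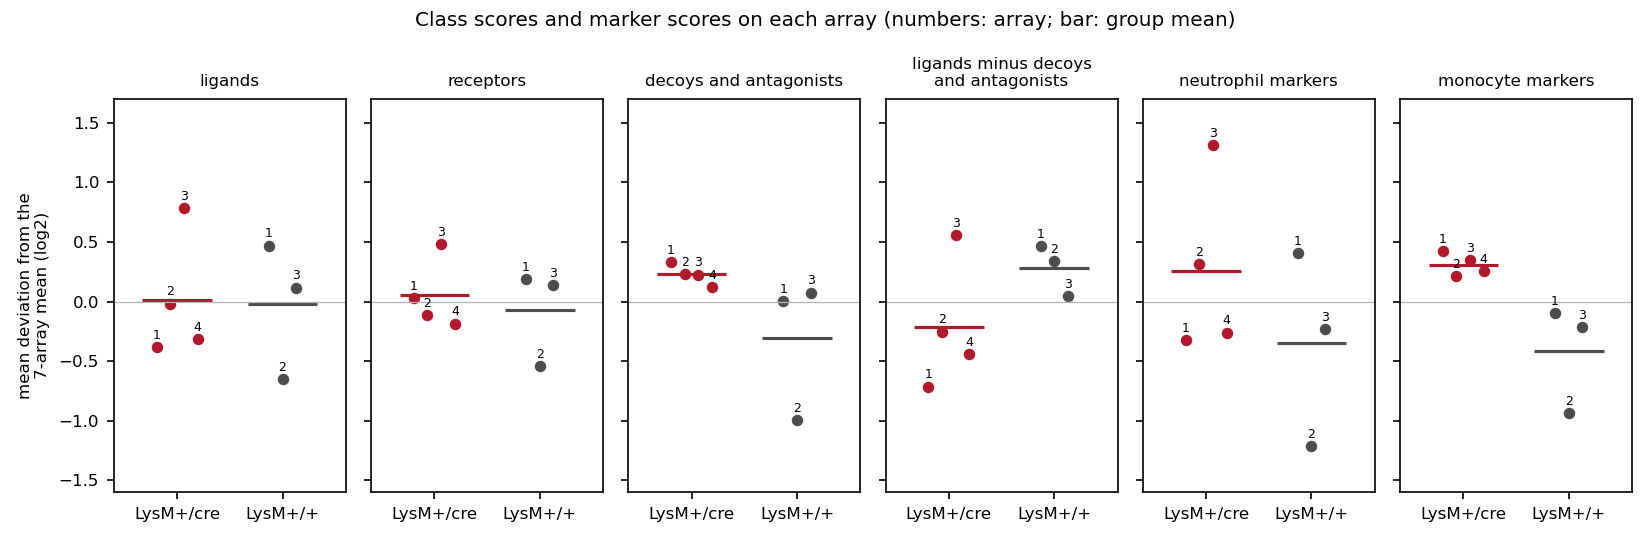
Mean deviation from the 7-array mean, in log2 units (y axis), of the ligands, receptors, decoys and antagonists, of the ligand minus decoy and antagonist balance, and of the neutrophil and monocyte marker lists, on each LysM+/cre (red) and LysM+/+ (grey) array. The balance is lower as a mean in LysM+/cre (-0.21) than in LysM+/+ (0.28), with LysM+/cre array 3 above all others at 0.56, and LysM+/+ array 2 is lowest for each class and for both marker lists.

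LysM+/+ array 2 set many of these values. It was the lowest of the 7 arrays for 8 of the 10 members, Il1a and Il1rl2 being the exceptions, while 16.2% of all genes had their lowest value there. LysM+/cre array 3 was the highest for 4 members, against 15.0% of all genes. Il1b had the smallest SD among the LysM+/cre arrays, 0.045, and Il1rl2 the smallest among the LysM+/+ arrays, 0.048. The genes whose profile over the 7 arrays lay closest to that of Il1b, by the root mean square distance between values centred on each gene's mean, were Stag1, Atxn2l, Nodal, Ezhip and Nap1l5, at distances of 0.026 to 0.030 where Il1b itself deviated by 0.10. For Il1r2 they were Fam162a, Bend4, Fam71f2, Dhx58 and Pfkl, at 0.11 to 0.17 where Il1r2 deviated by 0.50. Among 22180 genes and 7 arrays such closeness is a description only.

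The rest of the pathway was read from 4 gene lists, in which 0 of 64 measured genes passed the adjusted threshold. In other IL-1 family genes 0 of 10 measured were past an unadjusted p of 0.05, with a median difference of -0.11 against 0.0044 over all genes. The 3 of smallest p were the IL-18 receptor chains Il18rap (-0.35 ± 0.20 SE) and Il18r1 (-0.24 ± 0.14 SE) and Sigirr (-0.24 ± 0.21 SE), an inhibitory receptor. Their signals were low, with group means of 4.78 to 5.52 on LysM+/cre arrays and 5.02 to 5.87 on LysM+/+ arrays.

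Genes of IL-1 maturation and release were divided. Of 19 measured, 4 were higher and 4 lower at an unadjusted p under 0.05, where 6.56% and 4.93% of all genes were, and the median difference was 0.023. Txnip, a thioredoxin inhibitor that can bind the NLRP3 inflammasome sensor, measured 10.15, 10.45, 10.07 and 10.22 on the LysM+/cre arrays, against 10.82, 12.01 and 11.43 on the LysM+/+ arrays. All LysM+/cre arrays lay below the LysM+/+ arrays, a difference of -1.20 ± 0.26 (SE, adjusted p = 0.333, limma). Aim2, a sensor of cytosolic DNA, had a difference of -0.56 ± 0.15 (SE) and Casp4, the caspase that senses intracellular lipopolysaccharide, one of -0.51 ± 0.15 (SE), and in both the LysM+/cre arrays lay below the LysM+/+ arrays. Casp1, which cleaves the IL-1β and IL-18 precursors, and the sensor Nlrp3 had differences of -0.23 and -0.14 with overlapping arrays. Pycard, the inflammasome adaptor ASC, and Gsdmd, the pore protein through which IL-1β leaves the cell, had differences of 0.41 and 0.58, with the LysM+/cre arrays all above the LysM+/+ arrays for Pycard and overlapping arrays for Gsdmd. P2rx7 had a difference of -0.96 ± 0.29 (SE), and its LysM+/cre arrays all lay below the LysM+/+ arrays. In this list 1 gene was higher and 4 were lower without overlap, where 8.79% of all genes did not overlap. Casp1, Nlrp3, Pycard, Gsdmd and P2rx7 are named for their role and were chosen after their values were seen.

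In IL-1 receptor signalling 0 genes were higher and 2 lower at an unadjusted p under 0.05, of 17 measured, with a median difference of 0.033. Of all genes, 6.56% were higher and 4.93% lower at that threshold. Tab1, an activator of the kinase TAK1, had a difference of -0.51 ± 0.18 (SE), the ubiquitin ligase gene Peli1 one of -0.73 ± 0.27 (SE) and the kinase gene Mapk8 one of 0.32 ± 0.16 (SE). The LysM+/cre arrays all lay below the LysM+/+ arrays for Peli1 and all above them for Mapk8, both by a narrow margin. Of 18 genes that IL-1 can induce, 0 were higher and 4 lower at that threshold, with a median difference of 0.041. Means were higher on LysM+/cre arrays for 9 of these genes and lower for 9. The LysM+/cre arrays lay entirely above the LysM+/+ arrays for 1, Ptgs2 (0.70 ± 0.33 SE), and entirely below for 2. Of all genes, 8.79% did not overlap. Nfkbiz, an NF-kB cofactor strongly induced by IL-1, measured 10.25, 10.49, 10.55 and 10.68 on the LysM+/cre arrays, against 10.94, 10.93 and 11.10 on the LysM+/+ arrays. The genotypes did not overlap, and the difference was -0.50 ± 0.11 (SE, adjusted p = 0.333, limma). The adhesion molecule gene Icam1 did not overlap either, at -0.53 ± 0.14 (SE), and the cytokine gene Il6 did, at -0.90 ± 0.36 (SE). The fibroblast, epithelial and endothelial lists given above also had mostly lower means on LysM+/cre arrays, and their part in these differences was not tested. These genes also respond to many signals other than IL-1.

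**Figure D4:**
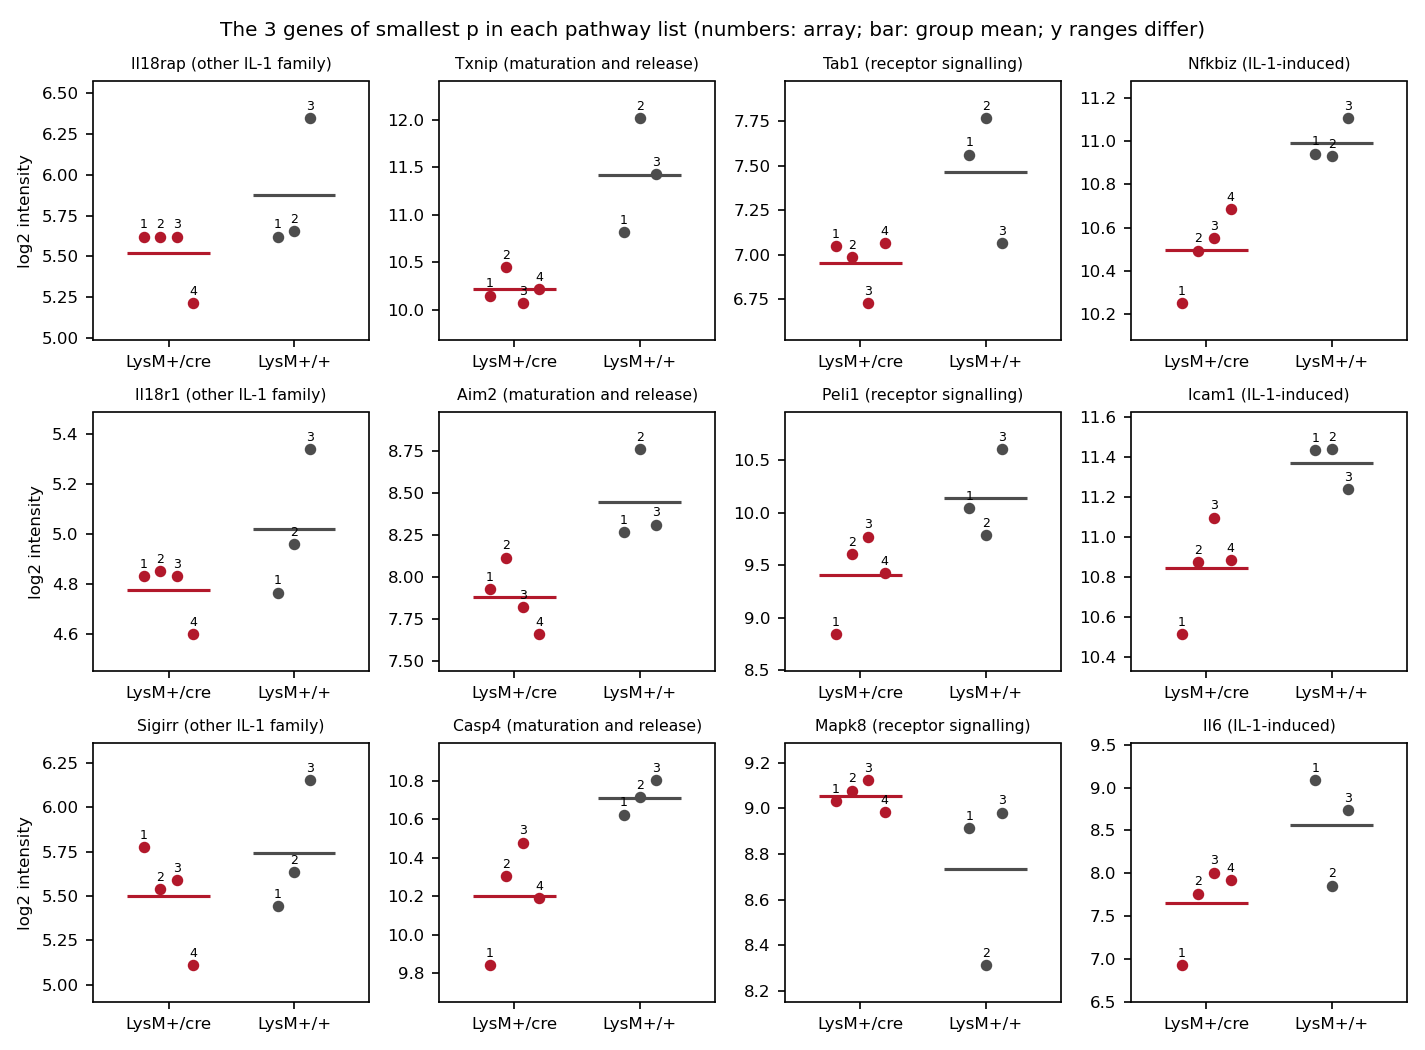
Log2 intensity (y axis) on each LysM+/cre (red) and LysM+/+ (grey) array of the 3 genes of smallest unadjusted p in each of 4 pathway lists, with the array number beside each point and a bar at the group mean. Txnip, Aim2, Casp4, Peli1, Nfkbiz and Icam1 show LysM+/cre arrays entirely below LysM+/+ arrays, Mapk8 shows them entirely above, the other 5 genes overlap, and none of the 12 genes passed the adjusted threshold.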

How the data were processed

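RNA of sorted colon macrophages was measured on 7 Affymetrix Mouse Gene 2.0 ST arrays, 4 LysM+/cre and 3 LysM+/+. The authors deposited 1 log2 intensity for each probe set. Per the labels of the series these come from Affymetrix Expression Console, and the submitters' processing notes also name Transcriptome Analysis Console, both with no version. How probes were summarised and background removed was not given in the sources used here. Quantiles of the arrays were nearly equal, so the authors' values had already been put on 1 scale, and a change common to all genes would not show. Precision is limited by how few arrays there are.

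Of 41345 probe sets, 23521 had exactly 1 symbol in the platform annotation, 1814 had several and 16010 had none listed. The probe set with the highest mean was kept per gene, which left 22180 genes. Il36g and other renamed genes were matched through RefSeq synonyms. The test was limma 3.58.1 (R 4.3.3), with lmFit and eBayes on the 2 genotypes, two-sided and without covariates. P-values were adjusted by Benjamini-Hochberg across the 22180 genes. Dim probe sets were kept, and all 10 members passed the alternative filter at the median of all values, though Il36g lay below the array median on some arrays. Scores and the class balance carry no test. The code was tested on simulated data. Figures were drawn with matplotlib 3.10.9.

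The members and lists were chosen with earlier results of these data known. All members, Rictor, the genes of each pathway list past the threshold or the 3 of smallest p, and the 5 genes closest in profile to Il1b and to Il1r2 were to be named. Marker lists are given by their scores. Results were recomputed after median or quantile scaling, without dim probe sets, with 2 other rules for probe sets, with 2 other variance models, with array weights, with a neutrophil or fibroblast score as covariate, with replicate numbers as a block, and without each array or each gene of the balance.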

Additional observations from a re-analysis of the deposited data

Results flagged for a closer look

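Of 32 values examined, 4 had 1 of the 4 LysM+/cre arrays far from the other 3 by Dixon's test, which chance gives in about 1 group in 20. Il1r2 measured 12.40 on LysM+/cre array 1, above the other 3. Rictor measured 8.25 on LysM+/cre array 3, above the other 3. On LysM+/cre array 4, Il18rap measured 5.21 and Il18r1 4.60, both below the other 3, and Il18rap was at the same value of 5.62 on those 3 arrays. The test was applied to the group of 4 arrays and not to the group of 3, so the low values of LysM+/+ array 2 were not examined by it.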

How the results depend on the processing

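The count of members past an adjusted p of 0.05 was 0 under each of 18 alternatives, with a smallest adjusted p of 0.331, and the count of other pathway genes was 0 as well, with a smallest adjusted p of 0.123. The ligand and antagonist balance was negative under each alternative run, from -0.75 to -0.33 when 1 array was left out and from -0.675 to -0.36 when 1 of its genes was. Equal array medians and the 2 other probe set rules could not change it from -0.495. It is a difference within an array, and each of its genes has 1 probe set. With the replicate block, fitted on arrays numbered 1 to 3, the balance was -0.42, the same as without LysM+/cre array 4, and the block changed no call. The labels do not say whether same-numbered arrays belong together. Deviations of same-numbered arrays from their group means correlated across genes at -0.11, 0.12 and 0.10. LysM+/cre arrays 1 and 2 both correlated best with LysM+/+ array 2 (0.12 and 0.12), and LysM+/cre array 3 with LysM+/+ array 1 (0.24). Since the deviations were taken within each genotype, these values cannot decide whether arrays were paired. The sign of a member's difference turned under some settings, and none of these differences was past the threshold under any. It turned for Il18 after quantile normalization (-0.0028), for Il1rap with the mean of its probe sets (-0.061), for Il1a with the fibroblast score as a covariate (0.099), and for Il36g (-0.85), Il1r1 (-0.081) and Il1rap (-0.11) with the neutrophil score as a covariate. Without a turn of sign, the neutrophil score moved differences by over 1.5 times for Il1a (-0.73), Il1b (0.023), Il18 (0.014), Il1rn (0.074) and Il18bp (0.39), and the fibroblast score for Il18 (0.24), Il36g (1.03), Il1rap (0.15), Il1rl2 (-0.35) and Il18bp (1.58). The causes were not tested. When 1 array was left out, differences ranged from -0.0052 to 0.15 for Il1b, from -0.014 to 0.095 for Il18, from -0.43 to 1.11 for Il36g and from -0.22 to 0.29 for Il1rap. With 4 and 3 arrays, differences of the size seen for Il1r2 and Il18bp lie within the error of these data.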

Other observations

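Il36g was singled out after its values were seen, for its span of 4.37 log2 units over the 7 arrays. The named genes closest to its profile, by the root mean square distance between centred values, were Lcn2, Wfdc21, Stfa1, S100a9 and Stfa3, at distances of 0.38 to 0.44 where Il36g itself deviated by 1.38. Lcn2 and S100a9 are on the neutrophil marker list, and Lcn2 is also made by inflamed epithelium. The genes closest to Il1rn were Acbd3, Cd14, Krr1, Foxk2 and Rbm4b, at 0.046 to 0.056 where Il1rn deviated by 0.19, and Cd14 encodes a lipopolysaccharide co-receptor of macrophages. The genes closest to Il1a were the proliferation marker Mki67, Arid5b, Lyst, Tnf and Vcam1, at 0.11 to 0.16 where Il1a deviated by 0.50. The genes closest to Il18bp were Ddit4, Fabp5, Tmem26, AW112010 and Cd300lf, at 0.18 to 0.25 where Il18bp deviated by 0.69.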
